A study of Homo sapiens with 2 samples.

Results

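The genes of DNA replication licensing and of the replication fork were described in 2 cisplatin-treated libraries labelled T-47D, 1 of them labelled FZR1 ko. The members were 47 genes named by current NCBI symbol, found through the Entrez gene IDs of the expression table and the RefSeq gene table. All 47 had a value, out of 23033 genes with a value in all, and all 47 passed the filter of at least 1 FPKM in at least 1 library, as did 13554 genes in all. They were placed in 13 roles by the complex or step in which their proteins act.

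Replication begins with licensing in G1, when the origin recognition complex (ORC), CDC6 and CDT1 load the MCM2-7 ring on origin DNA and geminin (GMNN) holds CDT1 inactive outside G1. In S phase the CDC7-DBF4 kinase, cyclin-dependent kinases and treslin (TICRR) fire the origins, CDC45 and GINS join MCM2-7 to form the active helicase, and polymerase alpha with primase makes the primers that polymerases epsilon and delta extend on the PCNA clamp. FZR1 activates the anaphase-promoting complex, a ubiquitin ligase that destroys proteins such as geminin and CDC6 in G1. That control acts on proteins, and the values here are mRNA levels. Cisplatin is a platinum drug that crosslinks DNA and blocks forks.

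RNAseq was done on total RNA of 2 libraries, both labelled as the T-47D breast cancer line, 1 of genotype WT (called control here) and 1 of genotype FZR1 ko. Both were treated with cisplatin at a dose of 2 µg/mL, so neither is an untreated sample. The FZR1 ko cells came from CRISPR-Cas9 with a lentiviral vector, puromycin selection and the cloning of a single cell, so the line is 1 clone. With 1 library per condition there is no replicate check, and each value below compares these 2 libraries, in which the genotype, the clone and the library cannot be told apart.

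FPKM, the fragments mapped to a gene scaled to its transcript length and to all mapped fragments, keeps no read counts, so the depth behind a value is unknown. FZR1 itself was at 12.3 FPKM in control and 10.1 in FZR1 ko, and its mRNA level does not check the label, since small insertions and deletions can leave the mRNA in place. Of 12 luminal breast markers, 6 were under 1 FPKM in both libraries, among them ESR1, PGR, GATA3, the E-cadherin gene CDH1 and KRT19, although KRT8 and KRT18 were high. T-47D is known as a luminal line with hormone receptors, and the estrogen receptor gene ESR1 was at 0.04 FPKM in control and 0.13 in FZR1 ko. The summed level of these markers was 1493 FPKM in control and 1826 in FZR1 ko, mostly KRT8 (829 and 998 FPKM) and KRT18 (552 and 740 FPKM). Of the 6 that passed the filter, 3 were higher in FZR1 ko (KRT8, KRT18 and AGR2) and 3 lower (FOXA1, XBP1 and TFF1). For 12 mesenchymal and basal markers, of which 4 were under 1 FPKM in both, the sums were 466 and 447 FPKM, mostly VIM (315 and 295 FPKM). Under these near-equal sums, CDH2 (2.97 and 15.3 FPKM), AXL (16.02 and 37.8 FPKM) and CAV1 (18.4 and 31.4 FPKM) were at least 1.5-fold higher in FZR1 ko and KRT17 (103 and 55.8 FPKM) was at least 1.5-fold lower, and their part in the results below was not tested. For 9 immune and endothelial markers the sums were 58.3 and 68.3 FPKM, mostly CD68, with 4 under 1 FPKM in both. The hormone receptor genes that mark the labelled line were thus at or near 0 in both libraries.

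The replication genes did not shift as a block. The log2 ratio below is the log2 of FPKM + 1 of the FZR1 ko library divided by FPKM + 1 of control. A gene counts as at least 1.5-fold or 2-fold higher or lower where this log2 ratio passes the log2 of that fold, so a gene of low level needs a larger ratio of FPKM to pass. A fold printed for a single gene is the plain ratio of its FPKM values. In FZR1 ko 26 members were higher and 21 were lower, and their median log2 ratio was 0.080, against -0.0048 over all 13554 genes kept. At least 1.5-fold higher were 9 of 47 (19.1%), where 18.0% of all genes kept were, and at least 1.5-fold lower were 6 of 47 (12.8%), where 17.6% were. At least 2-fold higher were 3 of 47 (6.38%), where 6.78% of all genes kept were, and at least 2-fold lower were also 3 of 47 (6.38%), where 6.72% were. These shares lie near or below the background at this pseudocount and filter, so the number of members past a fold is not a result about them, and what follows describes which members stood on each side. The genes at least 1.5-fold higher were ORC2, ORC5, POLA1, POLA2, PRIM1, PRIM2, POLE, RFC1 and LIG1, and those at least 1.5-fold lower were ORC1, ORC6, GINS3, GINS4, PCNA and FEN1. In bulk RNA, fewer cells of a kind and less RNA per cell cannot be told apart.

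FPKM is scaled to transcript length, so levels can be set side by side between genes. The members spanned 3.01 FPKM (POLA1) to 328 FPKM (PCNA) in control and 6.38 FPKM (GINS1) to 259 FPKM (POLD2) in FZR1 ko, with medians of 28.2 and 32.1 FPKM. The median over all genes kept was 9.28 FPKM in control and 9.75 in FZR1 ko. Low members tended to be higher in FZR1 ko and high members lower, so the members' levels lay closer together there. The SD of log2(FPKM + 1) over the 47 members was 1.495 in control and 1.24 in FZR1 ko, whereas over all genes kept it was 1.93 and 1.90. Across the members the log2 ratio had a Spearman rho of -0.42 with the mean level of the gene (n = 47 genes of the same 2 libraries), against -0.13 over protein-coding genes kept (n = 11550) and -0.055 over all genes kept (n = 13554). A ratio and a mean from the same pair of values share their error, so this is given as a description.

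**Figure D1:**
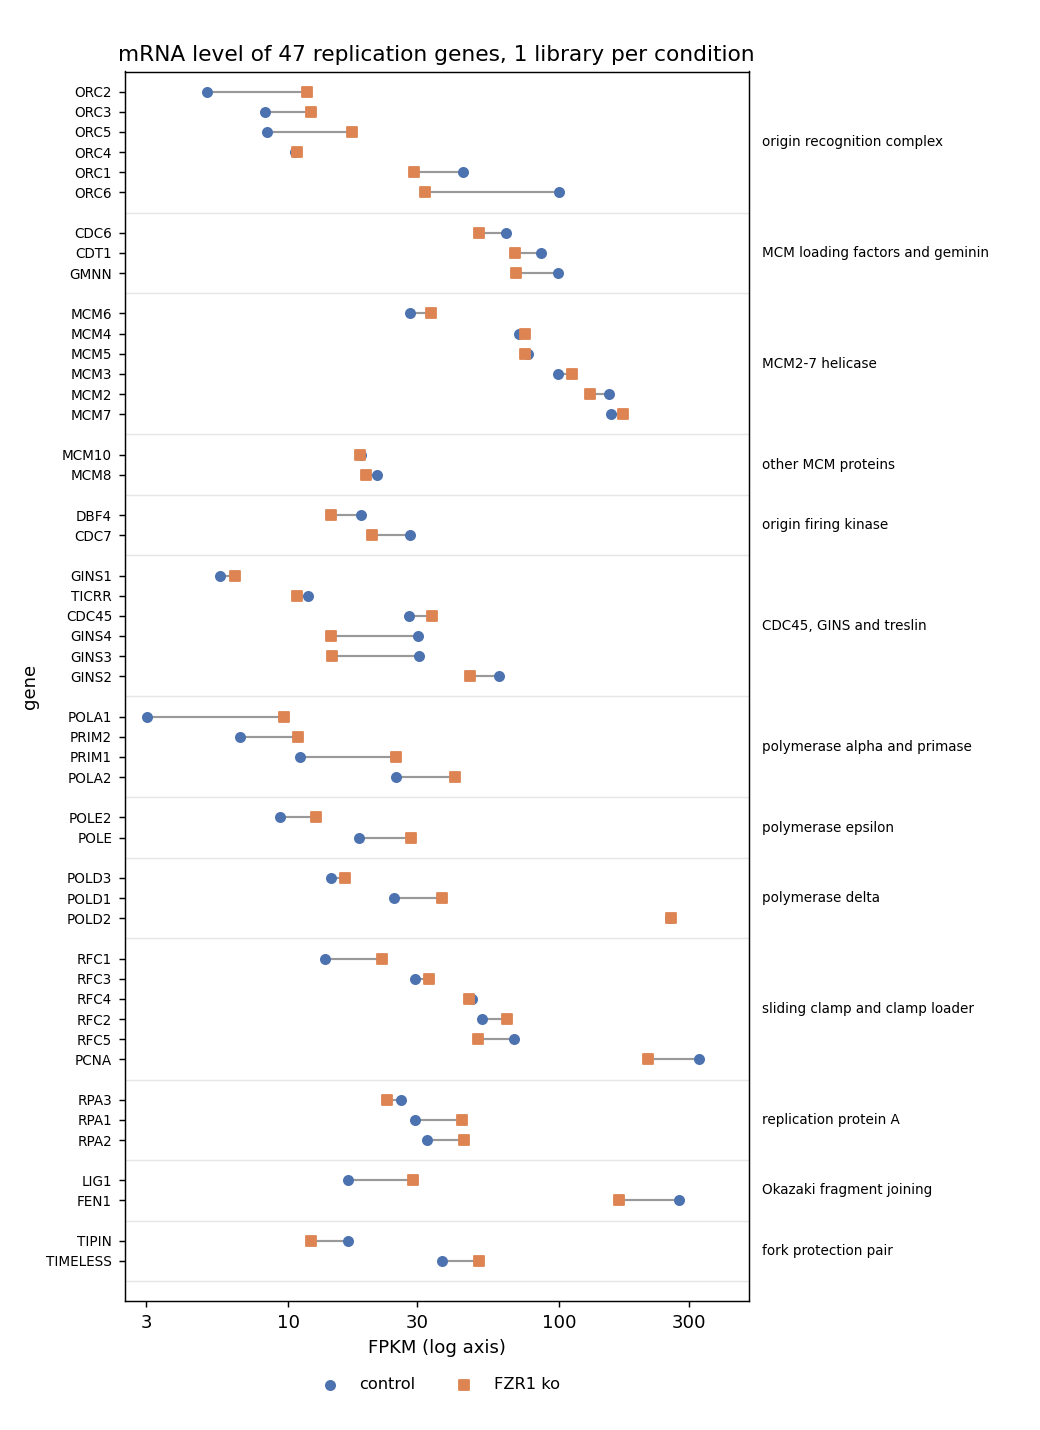
Level of each of the 47 replication genes in FPKM (horizontal log axis) in the control library (circles) and the FZR1 ko library (squares), grouped by role and joined by a line per gene. The 4 genes of polymerase alpha and primase all lie further right in FZR1 ko, ORC6 runs from 99.6 to 32.1 FPKM, and the MCM2-7 genes hardly differ.

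The promoters of the members with the largest differences are printed to show the sequence before each start, for the 3 highest ratios (POLA1, PRIM1 and ORC2) and for 3 of the lowest ratios (ORC6, GINS3 and FEN1, with GINS4 not printed). They are RefSeq sequence of GRCh38.p14 (the hg38 build), 210 bases each, from 200 bases before the annotated start to 10 bases after it, read 5′ to 3′ on the strand of the gene. Capitals mark matches on either strand to the E2F letters TTTCCCGC, TTTCGCGC, TTTGCCGC or TTTGGCGC, or to CCAAT, the box bound by NF-Y. The windows lie at chrX:24693718-24693927 (plus strand, POLA1), chr12:56752314-56752523 (minus strand, PRIM1), chr2:200963651-200963860 (minus strand, ORC2), chr16:46689459-46689668 (plus strand, ORC6), chr16:58392271-58392480 (plus strand, GINS3) and chr11:61792711-61792920 (plus strand, FEN1).
POLA1: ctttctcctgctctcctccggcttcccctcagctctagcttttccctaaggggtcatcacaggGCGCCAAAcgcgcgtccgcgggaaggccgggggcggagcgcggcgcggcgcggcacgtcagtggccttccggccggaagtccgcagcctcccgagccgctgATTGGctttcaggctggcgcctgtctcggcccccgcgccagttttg
PRIM1: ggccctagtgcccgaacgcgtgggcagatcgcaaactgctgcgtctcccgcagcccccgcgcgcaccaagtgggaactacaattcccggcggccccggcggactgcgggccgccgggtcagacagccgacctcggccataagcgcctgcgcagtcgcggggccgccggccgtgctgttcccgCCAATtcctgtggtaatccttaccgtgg
ORC2: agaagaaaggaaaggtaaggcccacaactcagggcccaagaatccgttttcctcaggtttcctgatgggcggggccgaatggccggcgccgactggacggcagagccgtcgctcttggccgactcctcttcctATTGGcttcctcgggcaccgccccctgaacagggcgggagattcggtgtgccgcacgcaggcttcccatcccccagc
ORC6: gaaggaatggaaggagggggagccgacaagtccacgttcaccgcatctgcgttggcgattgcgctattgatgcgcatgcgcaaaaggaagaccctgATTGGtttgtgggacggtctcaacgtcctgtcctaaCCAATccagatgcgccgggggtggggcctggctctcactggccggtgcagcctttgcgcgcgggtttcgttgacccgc
GINS3: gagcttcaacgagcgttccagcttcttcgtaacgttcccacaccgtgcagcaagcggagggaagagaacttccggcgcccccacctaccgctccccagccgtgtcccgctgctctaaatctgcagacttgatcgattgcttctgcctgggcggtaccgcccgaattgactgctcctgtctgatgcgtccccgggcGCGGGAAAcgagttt
FEN1: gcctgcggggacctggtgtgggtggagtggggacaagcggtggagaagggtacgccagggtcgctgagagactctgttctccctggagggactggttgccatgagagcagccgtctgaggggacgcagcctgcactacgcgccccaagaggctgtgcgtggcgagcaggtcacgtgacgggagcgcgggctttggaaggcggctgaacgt
POLA1 held TTTGGCGC on the opposite strand from 137 bases before its start and CCAAT on the opposite strand from 36 bases before it. PRIM1 held CCAAT 18 bases before its start, ORC2 held it on the opposite strand 67 bases before, and ORC6 held it 104 bases before on the opposite strand and 68 bases before on its own. GINS3 held TTTCCCGC on the opposite strand, 5 bases before its start. FEN1 had no match in the printed letters. A match is a run of letters and not a measured binding site, and no match says only that these letters are not in this window.

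Over all members with a RefSeq window from 250 bases before to 50 bases after a start (41 of 47, with 53 windows, since some genes have several starts), the E2F letters were found in 21 (51.2%). They were found in 6.69% of the 10354 genes kept that had a window, and in 3.99% of all 27305 genes with a window. CCAAT was found in 25 of 41 members (61.0%), against 43.1% of the genes kept and 39.7% of all. The letters TTTGAA or TTCGAA, the core of the cell cycle homology region, were found in 2 members (4.88%), DBF4 and MCM6, against 14.8% of the genes kept and 19.5% of all. No entry was matched for GINS4, MCM4, MCM5, POLD3, RPA2 and RPA3. The E2F letters did not sort the members by direction. Of the 21 that held them, 11 were higher and 10 lower in FZR1 ko with a median log2 ratio of 0.14, and of the 20 that did not, 12 were higher and 8 lower with a median of 0.14. The letters were in POLA1 and LIG1, which were higher, and in GINS3 and PCNA, which were lower, and 13 members held both the E2F letters and CCAAT.

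The origin recognition complex marks origins and recruits the loading factors, and its 6 subunits split widely between the libraries. ORC6, the smallest subunit, was at 99.6 FPKM in control and 32.1 in FZR1 ko, 3.10-fold lower (log2 ratio -1.60), the lowest ratio of all 47 members. ORC1, the subunit whose amount cycles with the cell cycle, was at 44.3 FPKM in control and 29.1 in FZR1 ko, with a log2 ratio of -0.59 just past the 1.5-fold limit, and -0.45 with the median of its chromosome subtracted. On the other side stood ORC2 and ORC5, both subunits of the stable core. ORC2 was at 5.02 FPKM in control and 11.7 in FZR1 ko, 2.33-fold higher (log2 ratio 1.08). ORC5 was at 8.33 and 17.3 FPKM, 2.07-fold higher as a plain ratio but with a log2 ratio of 0.97, just short of the 2-fold limit. The 2 other core subunits did not pass 1.5-fold, ORC3 with 8.23 and 12.1 FPKM (log2 ratio 0.51) and ORC4 with 10.6 and 10.8 FPKM (0.02). ORC6 and ORC1 were the highest subunits in both libraries, but by less in FZR1 ko, and the ratio of ORC6 to ORC2 was 19.8 in control and 2.74 in FZR1 ko. The summed level of the 6 subunits was 176 FPKM in control and 113 in FZR1 ko.

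The 3 genes of the loading factors and their inhibitor were lower in FZR1 ko, and none passed 1.5-fold. CDT1 turned to 0.070 when the median of its chromosome, 16, was subtracted. CDC6, the ATPase that joins ORC to load the rings, was at 63.4 FPKM in control and 50.4 in FZR1 ko (log2 ratio -0.33). CDT1, which brings the MCM ring to ORC, was at 85.8 and 69.0 FPKM (-0.31). GMNN, which encodes geminin, the inhibitor of CDT1, was at 98.6 and 69.3 FPKM (-0.50). The ratio of CDT1 to GMNN mRNA was 0.870 in control and 0.995 in FZR1 ko, so their mRNA levels were about equal in both. GMNN lies on chromosome 6, and the 93 other genes kept within 5 Mb of it had a median log2 ratio of -0.61, lower than its own. The median of the whole chromosome was -0.090, and with it subtracted GMNN had -0.41.

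The 6 genes of the MCM2-7 ring, the core of the replicative helicase, hardly differed between the libraries. Their log2 ratios ran from -0.22 (MCM2, 152 FPKM in control and 130 in FZR1 ko) to 0.25 (MCM6, 28.1 and 33.5 FPKM), a range inside the middle 50% of all genes kept (-0.42 to 0.43). MCM7 was at 155 and 171 FPKM, MCM3 at 98.5 and 112 FPKM, MCM5 at 76.6 and 74.6 FPKM, and MCM4 at 71.0 and 75.1 FPKM. The order of the 6 levels, with MCM7 and MCM2 highest and MCM6 lowest, was nearly the same in both libraries, with MCM4 and MCM5 trading places at close levels. Their summed level was 581 FPKM in control and 596 in FZR1 ko. MCM8, a helicase subunit outside the ring that serves in repair, was at 21.3 and 19.3 FPKM (-0.14). MCM10, which helps to activate the helicase, was at 18.7 and 18.4 FPKM (-0.02).

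Among the firing factors, both subunits of the kinase that phosphorylates the MCM ring were lower in FZR1 ko without passing 1.5-fold. CDC7, the catalytic subunit, was at 28.2 FPKM in control and 20.4 in FZR1 ko (log2 ratio -0.45), and DBF4, its activator, was at 18.6 and 14.5 FPKM (-0.34). TICRR, which encodes treslin, was at 11.9 and 10.8 FPKM (-0.13), and CDC45, which joins the ring at firing, was at 28.0 and 34.0 FPKM (0.27).

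GINS is a ring of 4 subunits that completes the helicase, and it split in the data. GINS3 was at 30.4 FPKM in control and 14.5 in FZR1 ko (log2 ratio -1.02), and GINS4 was at 30.2 and 14.3 FPKM (-1.03). These subunits had nearly the same level as each other in each library. GINS2, the most abundant of the 4, was at 59.8 and 47.02 FPKM (-0.34), and GINS1, the least abundant, was at 5.63 and 6.38 FPKM (0.15). The summed GINS level was 126 FPKM in control and 82.2 in FZR1 ko, while that of its partner MCM2-7 was about the same in both. GINS2 and GINS3 lie on chromosome 16, and with its median subtracted GINS2 turned to 0.041 and GINS3 had -0.64, which no longer passed 2-fold.

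Of the 13 roles, polymerase alpha and primase had the largest median log2 ratio (0.90), and its 4 genes were all at least 1.5-fold higher in FZR1 ko, as were 18.0% of all genes kept. POLA1 and PRIM2 belong to the longest genes, of which 58.0% were at least 1.5-fold higher, and with the median of genes of like length subtracted POLA1 had 0.72 and PRIM2 -0.055, so that PRIM2 no longer passed. POLA1, the catalytic subunit of the polymerase, was at 3.01 FPKM in control and 9.63 in FZR1 ko, 3.20-fold higher (log2 ratio 1.41), the highest ratio of the 47 members. PRIM1, the catalytic subunit of primase, was at 11.1 and 24.97 FPKM, 2.26-fold higher (1.11). POLA2, the accessory subunit, was at 25.03 and 41.3 FPKM (0.70), and PRIM2, the large primase subunit, was at 6.66 and 10.9 FPKM (0.63). POLA1 was the least abundant of all 47 members in control, at the 24.8th percentile of the genes kept, and stood at the 49.6th in FZR1 ko. The summed level of the 4 genes was 45.8 FPKM in control and 86.8 in FZR1 ko. PRIM2 has a near-identical partial copy in the genome, and how reads were split between the copies was not tested.

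Among the members, the genes of the extending polymerases were also higher or about equal. Of their subunits outside the members, POLE3 (85.49 FPKM in control and 64.43 in FZR1 ko, log2 ratio -0.40) and POLD4 (19.65 and 17.43 FPKM, -0.16) were lower. POLE4 was at 82.71 and 89.11 FPKM (0.11). POLE, the catalytic subunit of the leading-strand polymerase epsilon, was at 18.2 FPKM in control and 28.3 in FZR1 ko (log2 ratio 0.61), and its partner POLE2 was at 9.31 and 12.7 FPKM (0.41). POLE had 0.47 with the median of genes of like length subtracted and then no longer passed 1.5-fold. POLD1, the catalytic subunit of polymerase delta, which copies the lagging strand, was at 24.7 and 36.9 FPKM (0.56). Its accessory subunits differed less. POLD2 was at 255 and 259 FPKM (0.02), the highest level of any member in FZR1 ko, and POLD3 was at 14.5 and 16.2 FPKM (0.15), which turned to -0.21 with the median of genes of like length subtracted.

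**Figure D2:**
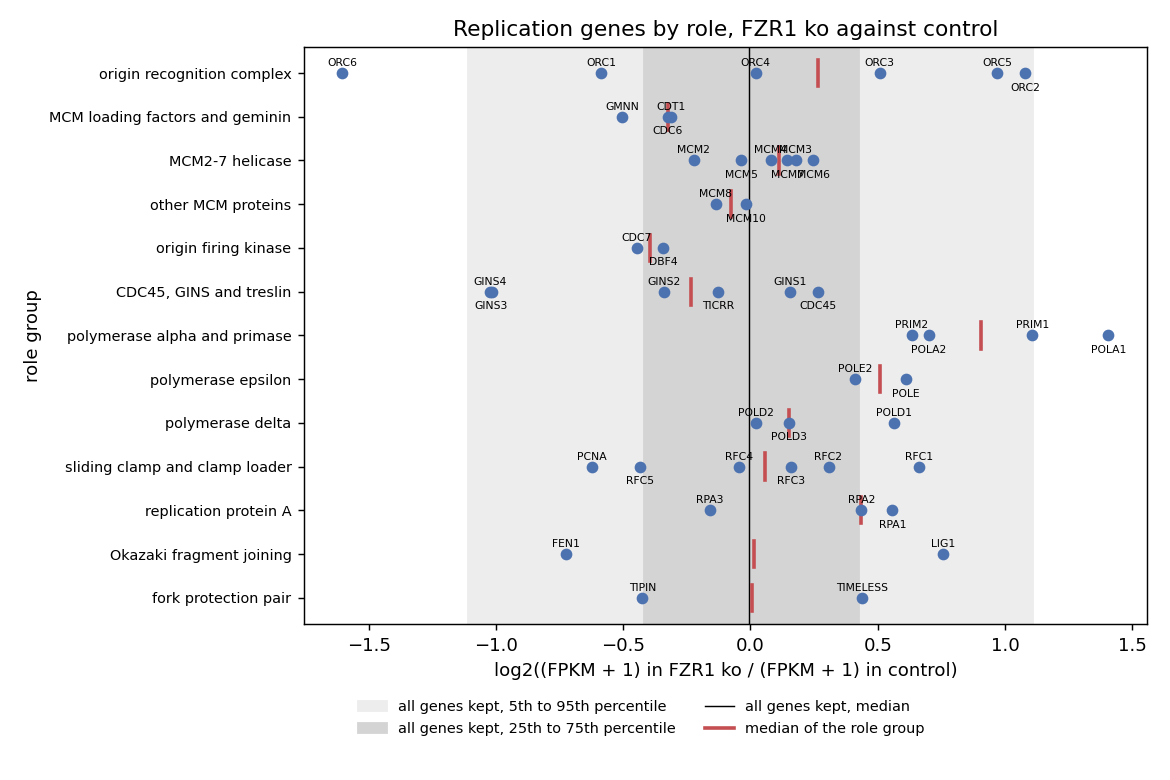
Log2 ratio of FZR1 ko over control, computed from FPKM + 1 (horizontal axis), for each replication gene (points) by role (rows), with role medians (short vertical lines) and, shaded, the middle 50% and 90% of all 13554 genes kept. Polymerase alpha and primase lie wholly to the right with a median of 0.90, while ORC spreads from -1.60 to 1.08 and MCM2-7 from -0.22 to 0.25.

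PCNA, the sliding clamp that tethers polymerases to DNA, was the most abundant member in control at 328 FPKM and was at 212 FPKM in FZR1 ko (log2 ratio -0.62). Its loader RFC differed by subunit. RFC1, the large subunit, was at 13.7 and 22.2 FPKM (0.66), past 1.5-fold, while RFC5 was at 67.9 and 49.99 FPKM (-0.43). RFC2 was at 51.8 and 64.3 FPKM (0.31), RFC3 at 29.4 and 33.0 FPKM (0.16), and RFC4 at 47.9 and 46.3 FPKM (-0.05). With the median of genes of like length subtracted, RFC1 had 0.30 and no longer passed, and RFC3 turned to -0.53. The ratio of PCNA to LIG1, both of which act when fragments are joined, was 19.6 in control and 7.34 in FZR1 ko.

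Replication protein A coats the single strands that open at forks. RPA1, its large subunit, was at 29.4 FPKM in control and 43.8 in FZR1 ko (log2 ratio 0.56), and RPA2, the subunit phosphorylated on damage, was at 32.6 and 44.5 FPKM (0.44). RPA3, the small subunit, was at 26.04 and 23.2 FPKM (-0.16). None of the 3 passed 1.5-fold on the log2 ratio.

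The pair that finishes Okazaki fragments on the lagging strand went in opposite directions. FEN1, the nuclease that trims the flap, was at 276 FPKM in control and 167 in FZR1 ko (log2 ratio -0.73), and LIG1, the ligase that seals the nick, was at 16.7 and 28.9 FPKM (0.76). The ratio of FEN1 to LIG1 mRNA was 16.5 in control and 5.76 in FZR1 ko. The fork protection pair, whose proteins form a complex that travels with the helicase, also diverged. TIMELESS was at 37.0 and 50.4 FPKM (0.44) and TIPIN at 16.7 and 12.2 FPKM (-0.42), and their ratio was 2.22 in control and 4.14 in FZR1 ko.

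The levels within a complex were closer together in FZR1 ko for 6 of the 7 complexes with at least 3 members here. The highest subunit of ORC was 19.8 times the lowest in control and 2.98 times in FZR1 ko. The same ratio was 10.6 and 7.37 for GINS, 8.32 and 4.29 for polymerase alpha and primase, and 4.97 and 2.89 for RFC. For MCM2-7 it was 5.51 and 5.11, and for polymerase delta 17.7 and 16.01, so these differed little. RPA was the exception, with 1.25 in control and 1.92 in FZR1 ko. Each of these ratios rests only on the highest and the lowest subunit, and no complexes outside replication were set beside them. Their relation to gene length and chromosome was not tested. Equal mRNA levels are not equal protein levels, which were not measured here for these genes.

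**Figure D3:**
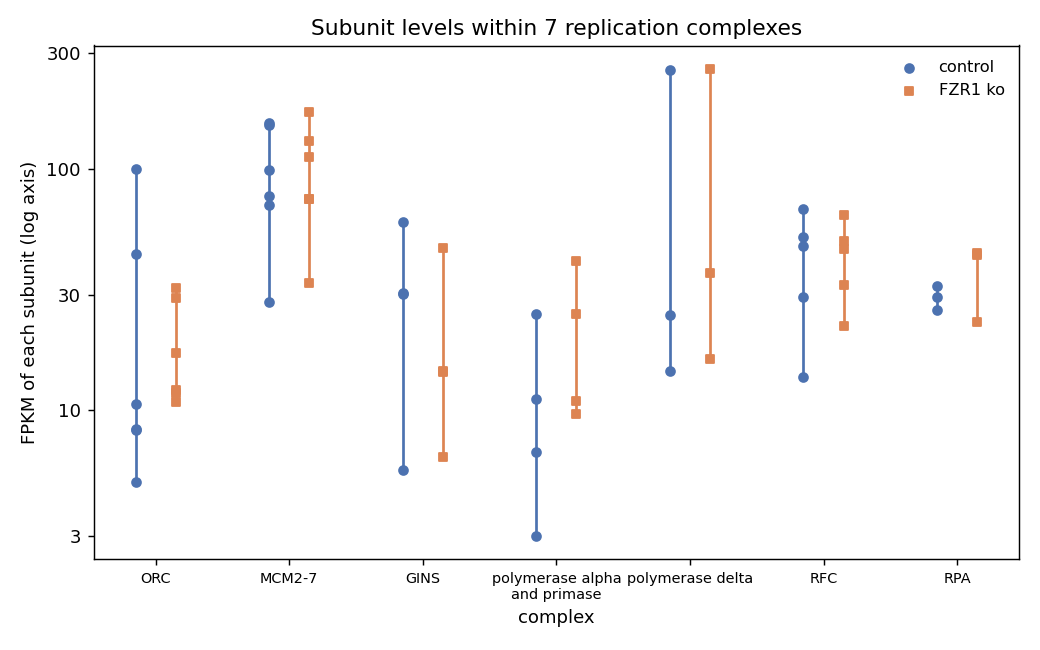
FPKM of each subunit (vertical log axis) in 7 replication complexes, in control (circles) and FZR1 ko (squares), with a line from the lowest to the highest subunit. The ORC line is much shorter in FZR1 ko (2.98-fold from end to end) than in control (19.8-fold), and only the RPA line is longer.

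Direction went with the length of the gene on the chromosome, here called its span, in the members and in all genes. Over all genes kept the log2 ratio had a Spearman rho of 0.39 with span (n = 13506), over protein-coding genes 0.45 (n = 11550), and over the members 0.57 (n = 47). All these points share the same 2 libraries, so this describes the libraries. Of the 20 members under 25 kb, 7 were higher and 13 lower, with a median log2 ratio of -0.32, where all genes of that span had -0.20. Of the 11 members from 25 to 50 kb, 7 were higher and 4 lower (median 0.25, all genes -0.027). Of the 16 members of at least 50 kb, 12 were higher and 4 lower (median 0.53, all genes 0.41). Long members that were lower despite their span were MCM5, RPA3, TICRR and TIPIN. Short members that were higher were MCM3, MCM4, MCM7, POLD2, PRIM1, RFC2 and RPA2.

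The number of exons went the same way, and it goes with span. Of 10 members with at most 8 exons, GINS1 alone was higher and 9 were lower (median log2 ratio -0.56, all such genes -0.18). Of 17 members with 9 to 16 exons, 10 were higher and 7 lower (median 0.02, all such genes 0.10), and of 20 with 17 or more exons, 15 were higher and 5 lower (0.42, all such genes 0.39). Transcript length had a weaker relation (rho 0.22 over the members and 0.18 over all genes kept), and transcript GC content had nearly none (-0.063 and -0.0053). The part of span and of exon number in the members' differences was not tested.

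To set each member beside genes of its own span, the genes were divided by span into 10 groups of equal size, and the median of the group was subtracted. PRIM1, with a span of 20.7 kb, then had the highest value (1.25), and in its group 7.85% of genes were at least 1.5-fold higher before the subtraction. POLA2 had 0.69, ORC2 0.93 and ORC5 0.60. POLA1, with a span of 303 kb, had 0.72, and PRIM2, with a span of 425 kb, had -0.055, so PRIM2 did not stand above genes of like span. In the group of the longest genes, which holds both, 58.0% were at least 1.5-fold higher. ORC6 (8.74 kb) had -1.40, GINS3 (13.7 kb) -0.78, GINS4 (15.8 kb) -0.79, FEN1 (4.33 kb) -0.52 and PCNA (11.7 kb) -0.39. In the span groups of these genes, between 22.5% and 27.5% of all genes were at least 1.5-fold lower. POLE, RFC1, PRIM2, PCNA and FEN1 then no longer passed 1.5-fold, and ORC2, POLA1, GINS3 and GINS4 no longer passed 2-fold. After the subtraction 23 members were above 0 and 24 below, with a median of -0.055.

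Chromosome 16 stood apart from the other chromosomes, and it carries 4 members, all lower in FZR1 ko. These were ORC6, GINS3, GINS2 and CDT1. The 675 other genes kept on chromosome 16 had a median log2 ratio of -0.38, and 72.9% of them were lower, while the medians of the 22 other chromosomes ran from -0.14 to 0.14. With the span group medians subtracted, chromosome 16 was at -0.29 and the others ran from -0.20 to 0.11. Set against the median of their chromosome, ORC6 had -1.22 and GINS3 -0.64, while GINS2 had 0.041 and CDT1 0.070. GINS2 and CDT1 were therefore no lower than their chromosome as a whole, whereas ORC6 and GINS3 were. The other genes kept within 5 Mb had a median of -0.32 around ORC6 (18 genes), -0.30 around GINS3 (45 genes), -0.21 around GINS2 (93 genes) and -0.19 around CDT1 (82 genes). Without these 4 genes, 26 members were higher and 17 lower with a median log2 ratio of 0.15, and the rho with span was 0.49 (n = 43 genes). DNA copy number was not analysed here, and the part of the chromosome in these values was not tested. GINS4 had a log2 ratio of -1.03, close to the -1.02 of GINS3, and lies on another chromosome, where the 38 other genes kept within 5 Mb had a median of 0.0014.

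**Figure D4:**
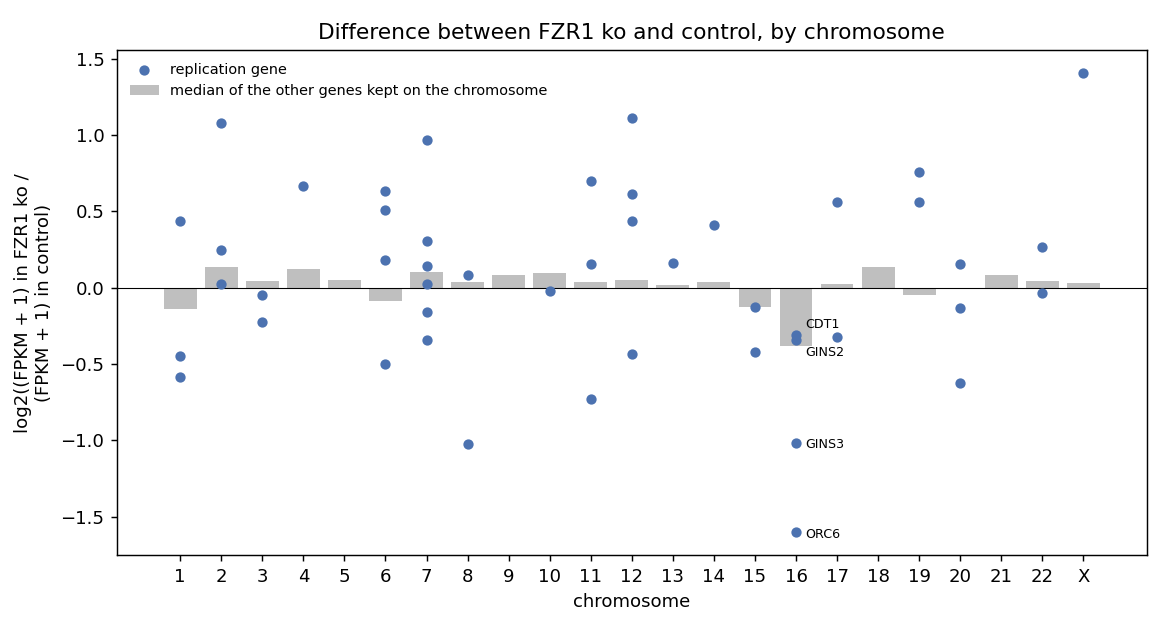
Log2 ratio of FZR1 ko over control from FPKM + 1 (vertical axis) for the replication genes (points) by chromosome (horizontal axis), with the median of the other genes kept on each chromosome (bars). The bar of chromosome 16 is the lowest at -0.38, and its 4 members, ORC6, GINS3, GINS2 and CDT1, all lie below 0.

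Some members share their place with other genes. The overlaps below are of whole spans, introns included, so the shared bases need not lie in the transcripts. Counting by strand was not stated, so reads from any shared exons may not be told apart. A gene of the table overlaps 14 of the 47 members. PCNA-AS1, a noncoding gene of 384 bases within the span of PCNA, was listed at 0 in control and at 24.1 FPKM in FZR1 ko. MCM7 hosts the miRNA genes MIR25, MIR93 and MIR106B, and MIR25 was at 23.4 and 7.23 FPKM, a value for an 84-base precursor that can rest on few reads. RPA3 shares 77856 bases with UMAD1, which was at 1.24 and 4.81 FPKM, and RFC5 shares 8762 bases with WSB2, at 50.3 and 51.7 FPKM. ORC1 shares 4902 bases with PRPF38A, a splicing factor gene, which was at 74.6 and 42.4 FPKM, lower in FZR1 ko like ORC1. Other overlapping genes went the opposite way from their member, namely AKIRIN2 (27.2 and 15.1 FPKM) beside ORC3, RAB23 (9.89 and 5.89 FPKM) beside PRIM2, KIF7 (2.71 and 6.54 FPKM) beside TICRR and AP4M1 (32.04 and 18.3 FPKM) beside MCM7. PCNA and FEN1 also have processed copies in the genome, and the split of reads between copies was not tested.

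The members' partners outside the list were described from 3 lists written from general knowledge. Of 26 further fork and firing factors, 16 were higher and 10 lower, with a median log2 ratio of 0.11, and 0 passed 1.5-fold on the log2 ratio in either direction, where 18.0% of all genes kept were higher and 17.6% lower by that much, although the plain FPKM ratios of DNA2, WDHD1 and ATAD5 reached it. The highest was DNA2, a nuclease and helicase that processes flaps, at 11.1 FPKM in control and 16.9 in FZR1 ko (0.56). The lowest was CHTF8, part of an alternative clamp loader, at 63.3 and 42.9 FPKM (-0.55). CLSPN, which encodes the checkpoint mediator claspin that binds TIMELESS and TIPIN, was at 29.7 and 20.2 FPKM (-0.54), and WDHD1, which ties polymerase alpha to the helicase, was at 5.95 and 9.15 FPKM (0.55).

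Of 16 enzymes that supply nucleotides for replication, 6 were higher and 10 lower (median log2 ratio -0.084), with 3 at least 1.5-fold higher and 2 at least 1.5-fold lower on the log2 ratio, where 18.0% and 17.6% of all genes kept were, so these counts lie near the background. DCK, a nucleoside kinase, at 20.9 and 13.9 FPKM (-0.56), passed on the plain ratio only. Enzymes of one-carbon metabolism were among the higher ones, SHMT1 with 8.49 FPKM in control and 18.5 in FZR1 ko (1.04) and MTHFD1 with 32.9 and 62.9 FPKM (0.92). SAMHD1, which breaks down dNTPs, was at 3.99 and 7.78 FPKM (0.82). DUT, which removes dUTP, was at 114 and 58.5 FPKM (-0.95), and RRM2B, a ribonucleotide reductase subunit induced by p53, was at 12.5 and 7.55 FPKM (-0.65). The main ribonucleotide reductase genes differed little, with RRM1 at 127 and 147 FPKM (0.21) and RRM2 at 131 and 116 FPKM (-0.18).

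Of 13 genes of chromatin assembly behind the fork, 9 were higher and 4 lower (median log2 ratio 0.079), with 5 at least 1.5-fold higher and 1 at least 1.5-fold lower, where 18.0% and 17.6% of all genes kept were. DNMT1, the maintenance DNA methyltransferase that binds PCNA, was at 24.6 FPKM in control and 47.4 in FZR1 ko (0.92), and UHRF1, which recruits it, was at 23.6 and 45.5 FPKM (0.92). CHAF1A, the large subunit of the CAF-1 histone chaperone, was at 23.8 and 38.6 FPKM (0.67). CABIN1 was at 2.57 and 6.19 FPKM (1.01), and NASP, a histone chaperone, was at 33.2 and 50.3 FPKM (0.59). ASF1B, a histone chaperone that hands new histones to CAF-1, was at 239 and 118 FPKM (-1.01). ASF1B spans 17078 bases, and the 5 higher genes span between 34853 bases (NASP) and 167325 bases (CABIN1). In the span groups of these 5, from 13.8% to 58.0% of all genes were at least 1.5-fold higher.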

How the data were processed

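Total RNA of the 2 libraries was sequenced on a BGISEQ-500. Per the submitters' processing notes, Trimmomatic 0.36, HISAT2 2.1.0, Bowtie2 2.2.5 and RSEM were used with the hg38 genome. The deposited table holds FPKM by Entrez gene ID, scaled by the authors to transcript length and mapped fragments. The annotation version, filters and fragment length are not given in the sources used here. Of 24663 rows, 1630 had no value, and 0 other columns of values per sample were present. Symbols and coordinates came from RefSeq (GRCh38.p14, the hg38 build), which matched 22925 of 23033 gene IDs (99.5%), and exons, transcript length and GC content from GENCODE release 44.

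The ratio of FZR1 ko over control was taken on the log2 scale after a pseudocount of 1 FPKM, which pulls low genes towards 0. Genes that reached 1 FPKM in either library were kept. Members past 1.5-fold (0.58 on the log2 scale) or 2-fold were counted beside all genes kept. No replicates exist, so the ratios were not tested. Precision is unknown, since FPKM keeps no counts.

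The members, roles, lists and rules were chosen with earlier results of these data known. All 47 members, FZR1 and genes of the lists could be named. PCNA-AS1, MIR25, UMAD1, WSB2, PRPF38A, AKIRIN2, RAB23, KIF7 and AP4M1 were named after their values were seen. Promoters were printed for the 3 largest ratios in each direction by a rule that left out chromosome 8, so GINS4, with the second lowest ratio and no matched entry, was passed over. Alternatives were a pseudocount of 0.1 or 5 FPKM, other filters, protein-coding genes, rescaling and centring. Subtracting the median of a span group or a chromosome was added after seeing the data. A planned description of protein sequences was not run. Python 3.11.15, numpy 2.4.6, pandas 2.3.3, scipy 1.17.1 and matplotlib 3.10.9 were used, and the scripts were tested on simulated data.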

Additional observations from a re-analysis of the deposited data

How the results depend on the processing

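No paired analysis was possible because there is only 1 library of either genotype, and for the same reason no library could be left out. Other pseudocounts and filters cannot turn a ratio, and rescaling or centring moved the members' log2 ratios by at most 0.0060 and turned 0. With a pseudocount of 5 FPKM, 1 member (2.13%) was at least 2-fold lower and 0 were at least 2-fold higher, where 1.99% and 1.35% of all genes were, 6 (12.8%) were at least 1.5-fold higher, where 8.21% were, and the median of polymerase alpha and primase was 0.75. With no filter on low values 19.1% of members were at least 1.5-fold higher, where 10.96% of all genes were. Among genes that reached 10 FPKM in either library, which leaves 45 members, that median was 0.70 and that of CDC45, GINS and treslin was -0.34. With the span group median subtracted, the members' median was -0.055 and PRIM2 was -0.055, and 1 member was at least 2-fold lower and 1 at least 2-fold higher (2.13% each, all genes 5.18% and 4.72%). The role medians were then -0.10 for ORC, -0.19 for the loading factors, 0.23 for MCM2-7, -0.22 for MCM8 and MCM10, 0.70 for polymerase alpha and primase, and -0.13 for the clamp and its loader. That subtraction turned ORC4, PRIM2, POLD3, RFC3 and RFC4. With the chromosome median subtracted, CDC45, GINS and treslin had a median of 0.022, and ORC4, CDT1, GINS2, TICRR and POLD2 turned. ORC1 lay so near the 1.5-fold limit that 5 members were at least 1.5-fold lower after rescaling or centring. Beyond the construction of each alternative, the cause was not tested. Depth is unknown, so which values rest on few reads cannot be read from FPKM.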
